A study of Mus musculus with 10 samples.

Results

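The genes of this report build the anchor that holds basal keratinocytes of the skin on their basement membrane. They are Itga6, Itgb4, Itgb1, Itga3, Itga2, Lama3, Lamb3, Col17a1 and Dst, 9 genes chosen by name and looked up in the deposited comparison tables, each of which held all 9 as a locus of status OK that names no other gene. The tables held 11464 loci of status OK for suprabasal and 11290 for basal cells, loci naming several genes included, and 10583 were in both. RNA was sequenced from keratinocytes sorted by flow cytometry from the skin of FVB/N mice at postnatal day 4, in 2 bitransgenic and 3 wild type samples of suprabasal cells and in 2 bitransgenic and 3 wild type samples of basal cells. The labels call the bitransgenic mice (BT) a model of Hutchinson-Gilford progeria (HGPS), a premature ageing disorder in which a truncated lamin A named progerin accumulates. The labels give neither the transgenes nor the promoter that drives them, and the wild type mice are described by strain and genotype alone. They also do not say on which surface marker the cells were sorted. Integrins of this set are widely used for such sorts, so a difference between the layers may in part be the sort itself.

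A hemidesmosome is a rivet between the keratin filaments inside a basal cell and the basement membrane outside it. Its core is the integrin heterodimer made by Itga6 and Itgb4, joined in the membrane by the collagen of Col17a1 and bound inside the cell by the plaque proteins of Dst and Plec. Outside, the core binds the epidermal laminin, with chains encoded by Lama3 and Lamb3. Itgb1 pairs with Itga3 to bind the same laminin and with Itga2 to bind collagen, and these pairs connect to actin at focal adhesions. Loss of several of these genes causes blistering of the skin in humans and mice. Keratinocytes that leave the basal layer lose these contacts and differentiate.

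The levels, fold changes, p and q below are those of the authors' deposited tables. Each level is 1 value for a whole group in FPKM (fragments scaled by transcript length and library size), so levels of different genes can be compared but carry no error of their own. The fold changes are log2 of bitransgenic over wild type, and the ± is the standard error (SE) implied by the authors' p-value. Taken from the deposited test statistic instead, the SE of the 9 genes would be 1.52 to 2.99 times as large in suprabasal and 1.51 to 1.93 times as large in basal cells, so the intervals below are the narrower ones. A gene was called when the authors' q, their adjusted p, was under 0.05. The depth of the samples is unknown, and with 2 or 3 samples a group the precision is limited. Since group values cover bulk cells, fewer cells of a type and less RNA per cell cannot be told apart.

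The sort was checked on markers. Basal keratinocyte markers, 3 of them members, were lower in suprabasal than in basal cells at 8 of 8 loci in bitransgenic and 8 of 8 in wild type mice. Only those that are not members check the sort apart from the 9 genes. They are Krt15, Trp63, Igfbp3 and the merged loci with Krt5 and Krt14, all lower in suprabasal cells in both genotypes. Markers of suprabasal keratinocytes were higher in suprabasal cells at 6 of 8 loci in bitransgenic mice, the exceptions being Krt1 and the merged Dsg1a locus, and at 8 of 8 in wild type mice. Between the genotypes, basal markers were lower in bitransgenic cells at 7 of 8 loci in suprabasal and 8 of 8 in basal cells. The exception was Trp63, and the 3 members were lower in both layers. As lower, 1 of the 8 was called in suprabasal (Krt15) and 2 in basal cells (Krt15 and Igfbp3), beside 0.419% and 1.39% of all loci. Suprabasal markers were lower in bitransgenic cells at 3 of 8 loci in either layer. None of them was called in suprabasal cells. In basal cells 1 was called as higher (Dsc1) and 1 as lower (Lor), beside 0.257% and 1.39% of all loci. Of all loci, 56.6% in suprabasal and 60.3% in basal cells were lower in bitransgenic cells. Melanocyte markers stood in the suprabasal fraction, with 8 loci measured and a summed level of 3843 FPKM in bitransgenic and 2073 FPKM in wild type cells, all 8 higher in bitransgenic. In basal cells 3 of these loci were measured, with sums of 12.9 FPKM in bitransgenic and 8.38 FPKM in wild type cells. The merged locus that names Xist, an RNA of female cells, stood at 103 FPKM in bitransgenic and 0.236 FPKM in wild type suprabasal cells, and at 108 FPKM in bitransgenic and 0.258 FPKM in wild type basal cells, so sex and genotype cannot be told apart. The part of the melanocyte markers in the values of the 9 genes was not tested.

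The first comparison set suprabasal against basal cells within a genotype. All 9 genes had the lower level in suprabasal cells, in bitransgenic and in wild type mice alike. In bitransgenic cells 51.8% and in wild type cells 52.9% of the 10359 loci with at least 1 FPKM in all groups had a ratio under 1. The median log2 ratio of suprabasal over basal was -1.07 for the 9 genes in bitransgenic cells, beside -0.03 for all these loci, and -1.10 in wild type cells, beside -0.04. Both genotypes showed the lower level in suprabasal cells at 37.3% of these loci. Each layer was scaled in a table of its own, so the ratios are a description with no test.

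Of the hemidesmosome core, Itga6 stood at 85.1 FPKM in suprabasal and 219.5 FPKM in basal bitransgenic cells, and at 106 FPKM in suprabasal and 241 FPKM in basal wild type cells. Its partner Itgb4 stood at 53.6 FPKM in suprabasal and 103 FPKM in basal bitransgenic cells, and at 62.5 FPKM in suprabasal and 164 FPKM in basal wild type cells. Both subunits were thus lower above the basal layer in either genotype, with log2 ratios of -1.37 for Itga6 and -0.95 for Itgb4 in bitransgenic cells and of -1.19 and -1.40 in wild type cells. Col17a1, the transmembrane collagen, had the highest level of the 9 in every group. It stood at 95.2 FPKM in suprabasal and 237 FPKM in basal bitransgenic cells, and at 145 FPKM in suprabasal and 373 FPKM in basal wild type cells. Dst, whose epithelial form is a plaque protein, stood at 87.9 FPKM in suprabasal and 108 FPKM in basal bitransgenic cells, and at 102 FPKM in suprabasal and 175 FPKM in basal wild type cells. It had the ratios closest to 0, with a log2 of -0.30 in bitransgenic and -0.78 in wild type cells. Dst encodes neuronal, muscle and epithelial forms, and a level per gene does not separate them.

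The laminin chains kept close to each other. Lama3 stood at 19.7 FPKM in suprabasal and 41.3 FPKM in basal bitransgenic cells, and at 27.5 FPKM in suprabasal and 58.5 FPKM in basal wild type cells. Lamb3 stood at 30.9 FPKM in suprabasal and 64.8 FPKM in basal bitransgenic cells, and at 43.9 FPKM in suprabasal and 86.3 FPKM in basal wild type cells. The level of Lama3 over that of Lamb3 was 0.639 and 0.638 in suprabasal and basal bitransgenic cells, and 0.625 and 0.678 in suprabasal and basal wild type cells. Between the layers, the log2 ratio was -1.07 for both in bitransgenic cells, and in wild type cells -1.09 for Lama3 and -0.97 for Lamb3.

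Among the partners of focal adhesions, Itgb1 stood at 61.6 FPKM in suprabasal and 92.2 FPKM in basal bitransgenic cells, and at 66.5 FPKM in suprabasal and 119 FPKM in basal wild type cells. Itga3, its laminin-binding partner, stood at 37.5 FPKM in suprabasal and 74.4 FPKM in basal bitransgenic cells, and at 31.5 FPKM in suprabasal and 67.4 FPKM in basal wild type cells. Unlike that of Itgb1, its level was higher in bitransgenic than in wild type cells in both layers. Itga2, the collagen-binding subunit, had the lowest level of the 9 in every group, at 4.25 FPKM in suprabasal and 12.9 FPKM in basal bitransgenic cells, and at 4.08 FPKM in suprabasal and 12.0 FPKM in basal wild type cells. Its log2 ratio between the layers was -1.60 in bitransgenic and -1.56 in wild type cells, the lowest of the 9 as deposited. With 5 FPKM added to each level it was -0.95 in bitransgenic and -0.90 in wild type cells, above those of Itga6 (-1.32 and -1.15) and Col17a1 (-1.27 and -1.33).

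**Figure D1:**
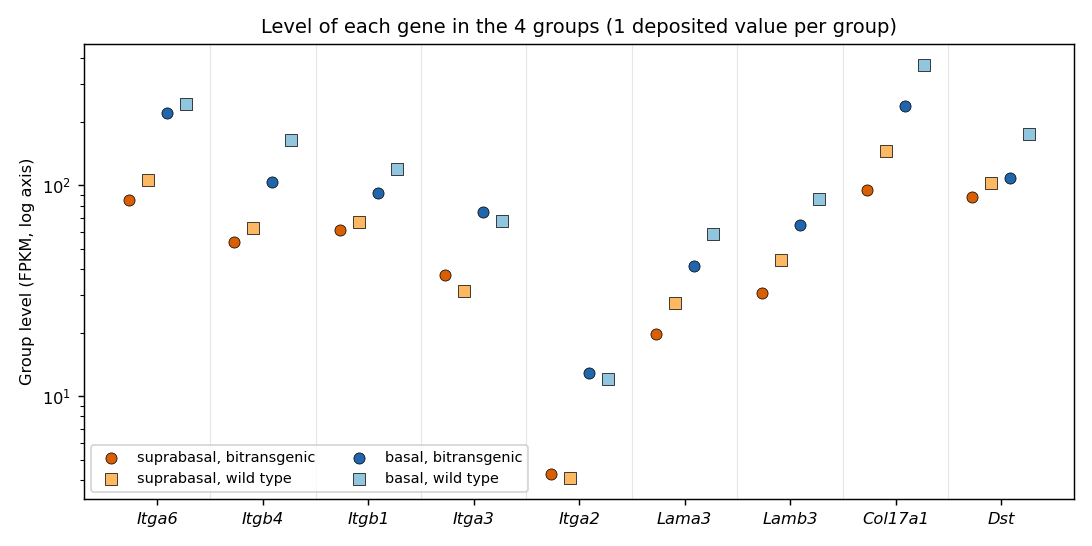
Level of each of the 9 genes in FPKM on a log axis, with 1 deposited value per group: suprabasal cells in orange and basal cells in blue, circles for bitransgenic and squares for wild type mice. For each gene the suprabasal values lie below the basal value of the same genotype, from Col17a1 at the top (373 FPKM in basal wild type cells) to Itga2 at the bottom.

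Seen against all loci, 3.85% had a lower ratio between the layers than Itga6 in bitransgenic and 4.17% in wild type cells, and for Col17a1 these shares were 4.25% and 2.87%. The low-level Itga2 was undercut by 2.26% of loci in bitransgenic and 1.66% in wild type cells. The share was larger in bitransgenic than in wild type cells for all of the 9 genes but Itga6 and Lamb3. It depends on the spread of all loci as well as on the gene, and more loci had low ratios in bitransgenic cells. Itga2 thus had the larger share in bitransgenic cells although its log2 ratio was lower there, at -1.60 beside -1.56. The gap was widest for Dst, with 34.2% and 10.6%, Itgb1, with 20.2% and 9.15%, and Itgb4, with 9.08% and 2.58%. These shares carry no error. The difference of a gene's log2 ratios between the genotypes equals its suprabasal minus basal fold change. That quantity is tested below, and none of the 9 genes passed. Counted by a log2 ratio under -1, 5 of the 9 genes passed in bitransgenic cells, where 8.06% of all loci did, and 6 of 9 in wild type cells, where 6.60% did. With 5 FPKM added to each level, 2 of 9 passed in bitransgenic cells, beside 3.22% of all loci, and 3 of 9 in wild type cells, beside 2.39%. Without it, Lamb3 with -0.97 in wild type and Itga3 with -0.99 in bitransgenic cells lay just outside that limit, and Lama3 with -1.07 in bitransgenic and -1.09 in wild type cells just inside.

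**Figure D2:**
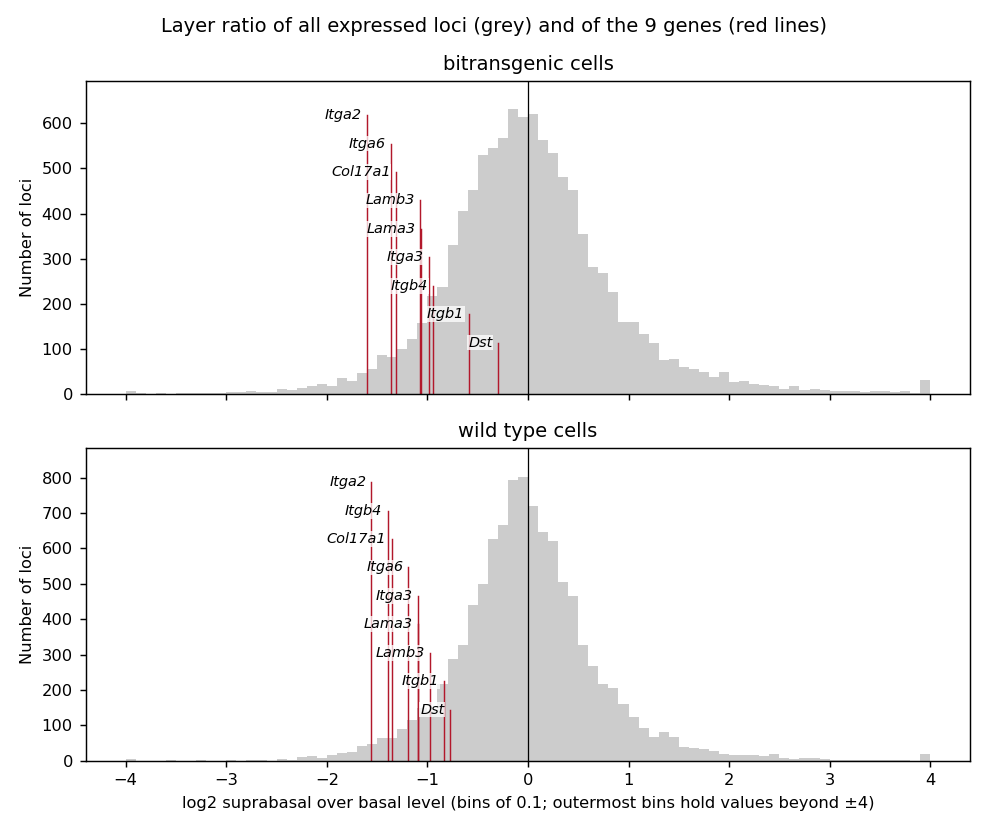
Number of loci (vertical axis) by log2 of the suprabasal over the basal level (horizontal axis, bins of 0.1) in bitransgenic cells above and wild type cells below, with a red line for each of the 9 genes, whose height has no meaning. The 9 lines lie left of 0 in both panels, and Dst is nearest to 0 in both, at -0.30 in bitransgenic and -0.78 in wild type cells.

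Sequences before the start sites are shown for 3 members that stand for the different patterns: Col17a1, which has the highest level, Lamb3, a laminin chain, and Itga3, whose level was not lower in bitransgenic cells. The windows come from RefSeq on build GRCm38.p6, hold 250 bases before and 50 after a start site, and are printed 5′ to 3′ on the strand of the gene. Capitals mark matches on either strand to GGGCGG (the GC box, present in 35.7% of all 32851 windows), TATAAA (the TATA box, 13.6%) or TGANTCA (the AP-1 motif, 7.81%), which do not overlap here.
Col17a1 (chr19:47691993-47692292, minus strand): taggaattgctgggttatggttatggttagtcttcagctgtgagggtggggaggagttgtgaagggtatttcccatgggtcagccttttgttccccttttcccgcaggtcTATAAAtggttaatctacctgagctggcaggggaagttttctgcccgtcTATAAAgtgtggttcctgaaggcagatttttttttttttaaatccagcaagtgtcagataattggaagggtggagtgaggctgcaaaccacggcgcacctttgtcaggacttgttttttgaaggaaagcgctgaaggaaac
Lamb3 (chr1:193301744-193302043, plus strand): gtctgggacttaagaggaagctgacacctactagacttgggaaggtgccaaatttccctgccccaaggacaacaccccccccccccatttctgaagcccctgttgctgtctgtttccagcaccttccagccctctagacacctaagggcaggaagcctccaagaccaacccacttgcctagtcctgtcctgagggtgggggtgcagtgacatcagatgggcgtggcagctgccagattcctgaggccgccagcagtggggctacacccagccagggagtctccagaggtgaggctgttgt
Itga3 (chr11:95076665-95076964, minus strand): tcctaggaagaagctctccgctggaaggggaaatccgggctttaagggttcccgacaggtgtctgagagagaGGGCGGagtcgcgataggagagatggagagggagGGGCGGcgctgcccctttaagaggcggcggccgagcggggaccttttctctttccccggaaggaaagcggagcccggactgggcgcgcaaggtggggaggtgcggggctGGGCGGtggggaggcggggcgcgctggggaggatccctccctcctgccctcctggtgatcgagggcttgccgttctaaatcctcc
The Col17a1 window held 2 matches to TATAAA and none to the others. That of Itga3 held 3 matches to GGGCGG, and the Lamb3 window held no match to any of them. These matches describe the letters and show no binding. The table held 9 windows for 6 of the 9 genes, the others being Itgb1, Itga2 and Dst, and of the 9 windows a second one of Itga3 alone matched TGANTCA.

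The second comparison asked how the genes differ with the progeria model in suprabasal cells. None of the 9 was called, and none had an authors' p under 0.05. In the whole table, 0.471% of loci were called in either direction, 0.419% as lower and 0.0523% as higher in bitransgenic cells, and 5.16% had such a p with a lower and 1.95% with a higher level. The level was lower in bitransgenic cells for 7 genes and higher for 2, Itga3 and Itga2, while 56.6% of all loci were lower. Over the 9 genes the log2 fold change had a median of -0.22, beside -0.08 for all loci. Col17a1 had the lowest value, -0.61 ± 0.51 (95% interval -1.62 to 0.40, authors' q 0.843), from 95.2 FPKM in bitransgenic and 145 FPKM in wild type cells. The laminin genes followed, with -0.51 ± 0.39 for Lamb3 (authors' q 0.812) and -0.48 ± 0.38 for Lama3 (authors' q 0.816). At the other end, Itga3 had 0.25 ± 0.43, with an interval from -0.59 to 1.09. These intervals take in falls of more than 2-fold for 6 of the 9 genes, or for all 9 with SE from the deposited statistic, so the test does not show that the levels were alike.

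The third comparison put the same question to basal cells. Again none of the 9 was called or had an authors' p under 0.05, in a table where 1.65% of loci were called, 1.39% as lower and 0.257% as higher, and 6.21% had such a p with a lower and 1.47% with a higher level. The level was lower in bitransgenic cells for the same 7 genes and higher for Itga3 and Itga2, while 60.3% of all loci were lower. Over the 9 genes the log2 fold change had a median of -0.41, beside -0.12 for all loci. Since loci with at least 1 FPKM in both groups had a median of -0.11, values relative to that median are given as centred. The 9 genes had a centred median of -0.30 in basal and of -0.14 in suprabasal cells.

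In basal cells Dst, Itgb4 and Col17a1 had the lowest values. Dst had 108 FPKM in bitransgenic and 175 FPKM in wild type cells, a log2 fold change of -0.69 ± 0.37 (-0.58 centred) with an interval from -1.43 to 0.04, an authors' p of 0.0648 and a q of 0.465. Itgb4 had -0.67 ± 0.41 (-0.56 centred, authors' q 0.466), and Col17a1 had -0.65 ± 0.46 (-0.54 centred, authors' q 0.466). These 3 fold changes, with levels at 0.619, 0.628 and 0.637 of wild type, differed among each other by far less than their SE. The laminin genes stood at -0.50 ± 0.30 for Lama3 and -0.41 ± 0.27 for Lamb3.

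Subunits that pair with each other had unequal values in basal cells, but with overlapping intervals, and their differences were not tested. In basal cells Itga6 had 219.5 FPKM in bitransgenic and 241 FPKM in wild type cells, -0.14 ± 0.35 (-0.03 centred, interval -0.82 to 0.55), beside -0.67 for its partner Itgb4. The level of Itgb4 over that of Itga6 was accordingly 0.471 in bitransgenic and 0.681 in wild type basal cells. In suprabasal cells it was 0.630 in bitransgenic and 0.589 in wild type cells, so the order of the genotypes was the other way round. Itgb1 had -0.37 ± 0.35 in basal cells, and its partner Itga3 had 0.14 ± 0.32. The level of Itgb1 over that of Itga3 was 1.64 in bitransgenic and 2.11 in wild type suprabasal cells, and 1.24 in bitransgenic and 1.76 in wild type basal cells. None of these ratios has an error or a test.

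**Figure D3:**
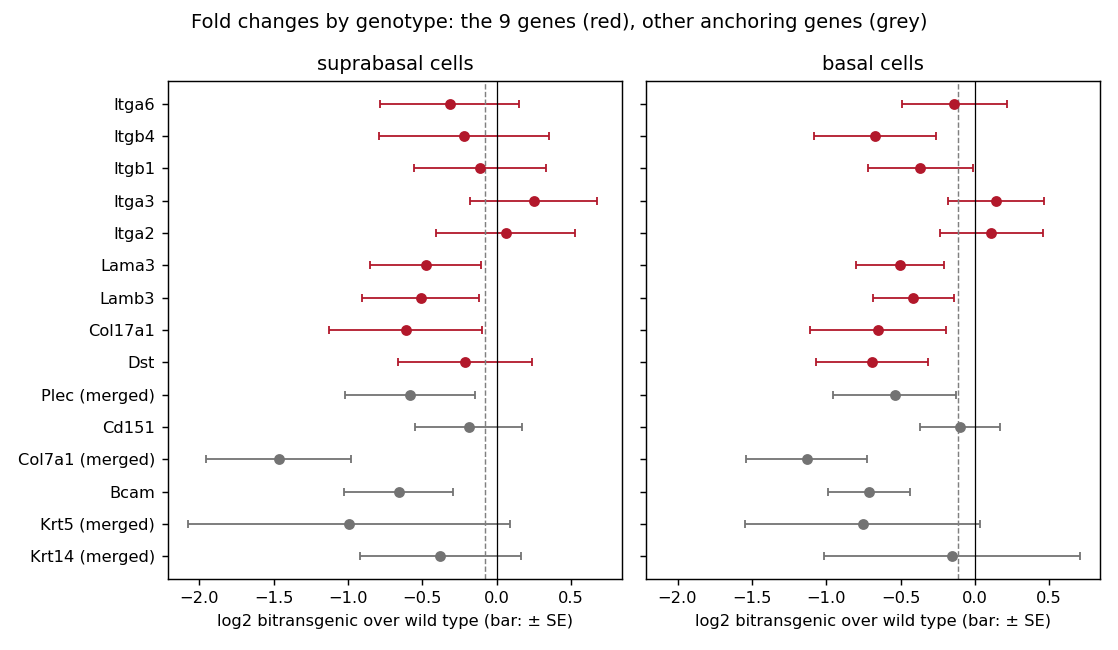
Log2 fold change of bitransgenic over wild type (horizontal axis) with its SE as a bar, in suprabasal cells on the left and basal cells on the right, for the 9 genes in red and 6 other anchoring loci in grey, with a dashed line at the median of expressed loci (-0.08 in suprabasal and -0.11 in basal cells). Itga3 and Itga2 are the points right of 0, and Col7a1 lies furthest left, at -1.47 in suprabasal and -1.13 in basal cells.

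The difference between the layers in the response to genotype was tested for each gene as the suprabasal minus the basal fold change. For none of the 9 genes did it pass a Wald test with Benjamini-Hochberg adjustment over 10583 loci, of which 0.0378% passed, and none had an unadjusted p under 0.05. The largest differences were those of Dst, 0.48 ± 0.58 (interval -0.67 to 1.62), and Itgb4, 0.45 ± 0.70 (interval -0.93 to 1.83), each with an adjusted p of 1. Lama3 had 0.02 ± 0.48, and Col17a1 had 0.04 ± 0.69. The genes were lower in bitransgenic cells in both layers for 7 of 9, where 39.4% of all loci were. Several title stems occur in both layers, so the same animals may have given both, which the test leaves out of account.

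Other genes of the anchor, a list of 6 loci, had levels on the same side. All 6 were lower in bitransgenic cells in either layer, where 56.6% of all suprabasal and 60.3% of all basal loci were. None of the 6 was called, and their median log2 fold changes were -0.62 in suprabasal and -0.63 in basal cells. Col7a1 encodes the collagen of the anchoring fibrils beneath the hemidesmosome. Its locus, merged with Ucn2, had 13.5 FPKM in bitransgenic and 37.2 FPKM in wild type suprabasal cells (-1.47 ± 0.49, authors' p 0.00265, q 0.141), and 39.9 FPKM in bitransgenic and 87.4 FPKM in wild type basal cells (-1.13 ± 0.41, authors' p 0.0053, q 0.0699). Bcam, a laminin receptor, had 62.7 FPKM in bitransgenic and 99.1 FPKM in wild type suprabasal cells, and 101 FPKM in bitransgenic and 165 FPKM in wild type basal cells (authors' q 0.110). The plakin Plec, in a locus merged with Parp10, had -0.58 ± 0.43 in suprabasal and -0.54 ± 0.41 in basal cells. Cd151, a tetraspanin that associates with laminin-binding integrins, had -0.19 ± 0.36 in suprabasal and -0.10 ± 0.27 in basal cells. Krt5 and Krt14, keratins that attach to the plaque, were measured in merged loci, whose values cannot be assigned to 1 gene. The locus with Krt5 also names Krt2, Krt6b, Krt72, Krt76 and Krt8. It had -0.99 ± 1.08 in suprabasal and -0.75 ± 0.79 in basal cells. The locus of Krt14 and Krt16 had -0.38 ± 0.54 in suprabasal and -0.16 ± 0.86 in basal cells.

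Other laminins, with their binders, had none called. In suprabasal cells 7 of 11 loci were lower in bitransgenic cells, beside 56.6% of all loci, with a median of -0.14. In basal cells 10 of 10 were, beside 60.3% of all loci, with a median of -0.66. Lama5, the alpha chain of another laminin of epithelia, had 13.7 FPKM in bitransgenic and 15.0 FPKM in wild type suprabasal cells, and 20.7 FPKM in bitransgenic and 34.1 FPKM in wild type basal cells (-0.72 ± 0.36, authors' p 0.0465, q 0.371). Agrn, a heparan sulfate proteoglycan of basement membranes, had -0.77 ± 0.33 in basal cells (authors' q 0.200), and Lamb2 had -0.60 ± 0.28 (authors' q 0.269). Nid1, which links laminin to collagen IV, was measured in suprabasal cells alone, at 6.08 FPKM in bitransgenic and 3.17 FPKM in wild type cells (authors' p 0.0168, q 0.265). The genes of this list with the highest levels were Rpsa and Dag1. Rpsa had -0.21 ± 0.35 in suprabasal and -0.10 ± 0.26 in basal cells, and Dag1, the gene of dystroglycan, had 0.03 ± 0.37 in suprabasal and -0.19 ± 0.28 in basal cells.

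Other integrin subunits were few. The highest level among them was 28.3 FPKM, that of Itgb6 in wild type basal cells, a gene described further below. Of 19 listed, 9 were measured in suprabasal and 5 in basal cells, and none was called. The medians were 0.12 in suprabasal and -0.07 in basal cells. Itgav, a subunit of receptors for fibronectin and vitronectin, had the highest mean level over the groups, with 17.2 FPKM in bitransgenic and 21.7 FPKM in wild type suprabasal cells, and 23.5 FPKM in bitransgenic and 24.6 FPKM in wild type basal cells. Its partner Itgb5 had 7.08 FPKM in bitransgenic and 16.1 FPKM in wild type suprabasal cells (-1.19 ± 0.47, authors' p 0.0115, q 0.204). Itga9 was measured in suprabasal cells alone, at 5.85 FPKM in bitransgenic and 2.18 FPKM in wild type cells (authors' p 0.0306, q 0.396).

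Among integrin ligands that are not laminins, 3 of 7 measured loci were called as lower in basal cells, Cyr61, Tgfbi and Thbs1, and none as higher. Of all loci in basal cells, 1.39% were called as lower and 0.257% as higher. In suprabasal cells none of 9 was called. Cyr61, a matricellular protein that binds integrins, had 66.7 FPKM in bitransgenic and 121 FPKM in wild type suprabasal cells (authors' q 0.363), and fell to 55.1 FPKM in bitransgenic basal cells, against 206 FPKM in wild type (-1.90 ± 0.47, authors' q 0.00858). Tgfbi, a matrix protein that binds collagen and integrins, had 15.97 FPKM in bitransgenic and 39.98 FPKM in wild type suprabasal cells (authors' q 0.0976), and fell to 41.3 FPKM in bitransgenic basal cells, against 126 FPKM in wild type (-1.60 ± 0.40, authors' q 0.00858). Cyr61 and Tgfbi each had an authors' p of 5e-05 in basal cells, the smallest given for any locus. Their ± there is therefore set by that limit and the fold change, and is not a measured error. Thbs1, which encodes thrombospondin, fell to 38.1 FPKM in bitransgenic basal cells, against 69.4 FPKM in wild type (-0.87 ± 0.29, authors' q 0.0457). That call ended in all 4 readjustments of the authors' p, with adjusted p between 0.184 and 0.417.

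Ctgf, related to Cyr61, had 4.02 FPKM in bitransgenic and 14.2 FPKM in wild type suprabasal cells (authors' q 0.0854), and 4.42 FPKM in bitransgenic and 9.79 FPKM in wild type basal cells (authors' q 0.127). Fn1, the gene of fibronectin, had -0.64 ± 0.29 in basal cells (authors' q 0.245), and Col3a1, measured in suprabasal cells alone, had 6.13 FPKM in bitransgenic and 3.02 FPKM in wild type cells (authors' p 0.0243, q 0.344). Cyr61 is also known as an immediate early gene. A list of immediate early and heat shock genes summed to 1860 FPKM in bitransgenic and 4891 FPKM in wild type suprabasal cells. There 5 of 15 loci were called as lower, beside 0.419% of all loci. In basal cells the list summed to 2845 FPKM in bitransgenic and 6248 FPKM in wild type cells. There 6 of 16 loci were called as lower, beside 1.39% of all loci. The part of the immediate early and heat shock genes in the values of the ligand genes was not tested.

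Genes of integrin activation and focal adhesions had none called in 38 loci measured in suprabasal and 33 in basal cells, with medians of 0.23 and -0.17. The tetraspanin gene Cd9 had the highest level, with 538 FPKM in bitransgenic and 632 FPKM in wild type suprabasal cells, and 507 FPKM in bitransgenic and 641 FPKM in wild type basal cells. Cd44, the hyaluronan receptor, had 0.48 ± 0.46 in suprabasal and 0.34 ± 0.42 in basal cells. Cd82, another tetraspanin, had 14.4 FPKM in bitransgenic and 28.7 FPKM in wild type suprabasal cells (authors' p 0.0147, q 0.243). Parvb, a partner of integrin-linked kinase, and the endocytic adaptor Dab2 were measured in suprabasal cells alone, and each had a higher level in bitransgenic cells with an authors' p under 0.05. Parvb had 3.51 FPKM in bitransgenic and 1.37 FPKM in wild type cells (authors' q 0.411), and Dab2 had 3.30 FPKM in bitransgenic and 1.17 FPKM in wild type cells (authors' q 0.191).

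**Figure D4:**
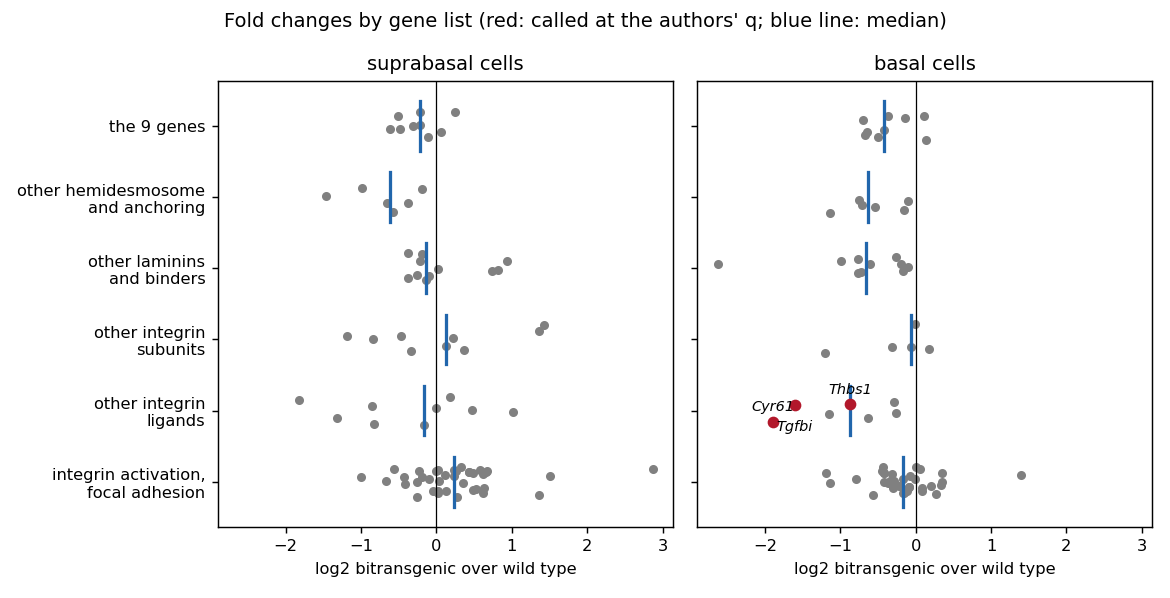
Log2 fold change of bitransgenic over wild type (horizontal axis) for each locus of 6 gene lists, in suprabasal cells on the left and basal cells on the right, with red points for loci called at the authors' q and blue lines for medians. The called points are Cyr61, Tgfbi and Thbs1, in basal cells, and the 9 genes have medians of -0.22 in suprabasal and -0.41 in basal cells.

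The lists differed in how they stood between the layers. The 6 other anchoring loci were lower in suprabasal cells in both genotypes, 6 of 6 each, with median log2 ratios of -1.02 in bitransgenic and -0.94 in wild type cells. For focal adhesion genes this held for 14 of 33 loci in bitransgenic and 19 of 33 in wild type cells, with medians of 0.17 and -0.05. The genes most like the average profile of the 9, over the 4 group levels centred on the log2 scale, were Rps4x, Gm12696, Ptprz1, Inadl and Fat2, from 7116 loci with at least 5 FPKM in all groups. Their root mean square distances from it lay between 0.042 and 0.070 log2 units, beside a median of 0.568 for all those loci. With 4 values a gene, such likeness is loose. Among the 9 themselves Lama3 was nearest to the average, at 0.10, and Itga2 and Dst were farthest, at 0.32 and 0.30.

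On mm10 the loci lie on chromosome 2 from 71745616 to 71858470 (Itga6), chromosome 11 from 115974709 to 116008414 (Itgb4) and from 95044395 to 95076801 (Itga3), chromosome 8 from 128685654 to 128733200 (Itgb1) and chromosome 13 from 114833085 to 114932393 (Itga2). Those of Lama3 lie on chromosome 18 from 12333644 to 12584316, of Col17a1 on chromosome 19 from 47645873 to 47692237, and of Lamb3 and Dst on chromosome 1 from 193301957 to 193343948 and from 33908225 to 34308911. In the GENCODE annotation of the same assembly, no locus of the 9 held another protein-coding gene. The Dst locus held 7 annotated noncoding genes or pseudogenes, 4 of them on the opposite strand, the Itga6 locus 4, the Lama3 locus 4 and the Itgb4 locus 1. The libraries are strand-specific per the labels, but whether the authors counted by strand is not given in the sources used here, so reads of such genes cannot be told apart from those of the members.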

How the data were processed

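RNA of sorted keratinocytes was sequenced in 10 samples. Per the submitters' processing notes, the tools were TopHat and Cufflinks, versions not given, on the mm10 build. The authors deposited 1 table per layer in the form of a Cuffdiff comparison, with 1 group level per genotype, read here as FPKM from that form and the tools named. Fold changes were deposited as log2 values, beside a test score whose form the authors do not state. Each p-value and q-value was computed by the authors. How libraries were scaled against each other is not given in the sources used here. Loci of another status than OK (26 per table) were left out.

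With Python 3.11.15, pandas 2.3.3 and scipy 1.17.1, each SE was computed as the absolute log2 fold change divided by the normal quantile that belongs to the deposited two-sided p, and 95% intervals from it. Group values allow no spread between samples. Where nothing says that samples came from separate animals, p-values measure the spread between samples alone. Layers were compared by a two-sided Wald test, adjusted by Benjamini-Hochberg over all loci. Alternatives were readjusted p, SE from the deposited test statistic, centring, pseudocounts of 1 and 5 FPKM, a minimum of 5 FPKM, no merged loci and q under 0.01 or 0.1.

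The members and lists were chosen with earlier results of these data known. Besides the 9 genes, the text names list genes with the authors' q or p under 0.05 in a layer and the 2 of highest mean level per list, with Plec and Cd151 for their place in the hemidesmosome. A further gene chosen for the anchoring list was left out and is not reported here. Markers and immediate early genes are given as counts and sums: of the other marker lists, fibroblast markers summed to 29.0 and 18.4 FPKM in bitransgenic and wild type suprabasal cells (4 loci) and 5.31 and 9.65 FPKM in basal cells (1 locus), leukocyte markers to 6.66 and 7.14 and to 5.02 and 5.79 FPKM (1 locus each), Schwann cell markers to 83.3 and 62.7 (4 loci) and 6.30 and 11.1 FPKM (2 loci), and no endothelial marker was tested.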

Additional observations from a re-analysis of the deposited data

How the results depend on the processing

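No member was called in either layer under any alternative run: readjustment over the analysed loci, centring, at least 5 FPKM, no merged loci, or q under 0.01 or 0.1. Suprabasal Itga2, under 5 FPKM, has no value at that minimum. Otherwise every member kept the direction of its fold change in each layer and of its ratio between the layers. With 5 FPKM added, the count of members with a log2 ratio between the layers under -1 was 2 in bitransgenic and 3 in wild type cells, against 5 and 6 as reported. With SE from the deposited test statistic, no layer difference of a member was called either. The layer difference of Lama3 was 0.02 as reported and -0.0083 after centring, its sign turned by the unequal medians of the layers. At q under 0.1, 2 suprabasal integrin ligand loci (Ctgf and Tgfbi) and 1 basal anchoring locus (Col7a1) were called, against 0 and 0 at 0.05. In basal cells Cyr61 and Tgfbi kept their calls after centring, with adjusted p of 0.0481 and 0.0489. These 2 values rest on SE derived from the smallest p given for any locus (authors' p 5e-05), so they depend on that limit. No paired analysis was possible because each table gives 1 value per group, and leaving out single samples was not possible for the same reason.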

Other observations

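Some adhesion genes, chosen after their values were seen, stood on opposite sides in the 2 layers. Itgb6, an integrin subunit of epithelia in wounds and development, had 22.4 FPKM in bitransgenic and 8.70 FPKM in wild type suprabasal cells (1.37 ± 0.92), and 12.2 FPKM in bitransgenic and 28.3 FPKM in wild type basal cells (-1.21 ± 0.97). Lama4, a laminin chain known from vessels and nerves, had 13.2 FPKM in bitransgenic and 7.47 FPKM in wild type suprabasal cells, and 0.987 FPKM in bitransgenic and 6.08 FPKM in wild type basal cells. Its level in bitransgenic basal cells lay under the minimum of 1 FPKM used above for expressed loci. Lamb1 had 12.0 FPKM in bitransgenic and 7.18 FPKM in wild type suprabasal cells, and 7.36 FPKM in bitransgenic and 14.6 FPKM in wild type basal cells. The suprabasal minus basal fold change was 2.57 ± 1.33 for Itgb6, 3.45 ± 1.54 for Lama4 and 1.72 ± 1.07 for Lamb1. Each had an adjusted p of 1 by the Wald test over all loci, and of these that of Lama4 alone had an unadjusted p under 0.05. Fermt2, an activator of integrins, had 27.8 FPKM in suprabasal and 3.12 FPKM in basal bitransgenic cells, and 18.1 FPKM in suprabasal and 1.19 FPKM in basal wild type cells, whereas its relative Fermt1 had 4.799 FPKM in suprabasal and 15.9 FPKM in basal bitransgenic cells, and 7.65 FPKM in suprabasal and 21.7 FPKM in basal wild type cells. The sorted fractions also differed in melanocyte markers, as given above. The part of melanocytes in the levels of these genes was not tested.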
